A study of Mus musculus with 36 samples.

Results

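The proteins of the VPS13 family and the large proteins that carry a BEACH domain are among the longest in the mouse brain, and 10 of their genes were followed here through ribosome profiling of P5 mouse brain. These genes were Vps13a, Vps13b, Vps13c and Vps13d of the VPS13 family, and Lrba, Nbea, Wdfy3, Lyst, Nbeal1 and Nbeal2 of the BEACH family. They were chosen by gene symbol, and all 10 were found among the 16614 rows of the count table, of which 16561 are protein-coding genes. All 10 passed the filter on low counts in every comparison described.

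VPS13 proteins are rod-shaped molecules with a hydrophobic groove along their length, and they bridge pairs of membranes at contact sites so that lipids can pass in bulk from one to the other. VPS13A works at contacts of the endoplasmic reticulum with mitochondria, lipid droplets and the plasma membrane, VPS13B at the Golgi, VPS13C at late endosomes and lysosomes, and VPS13D at mitochondria and peroxisomes. Mutations of VPS13A cause chorea-acanthocytosis, of VPS13B Cohen syndrome, of VPS13C an early form of Parkinson's disease and of VPS13D a spastic ataxia. BEACH proteins act in vesicle traffic and in the handling of membrane cargo. Neurobeachin (Nbea) moves receptors to synapses, LRBA keeps CTLA4 from being degraded, WDFY3 (ALFY) links protein aggregates to autophagy, LYST governs the size of lysosomes and is lost in Chediak-Higashi syndrome, and NBEAL2 is needed for platelet granules. NBEAL1 is the least studied of the group.

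The study compared ribosomes that sediment to the pellet of a sucrose gradient, a fraction taken to hold RNA granules with stalled ribosomes, with ribosomes of fraction 5/6, which holds heavy polysomes. Ribosome protected fragments (RPFs) of both the pellet and fraction 5/6 were read, and RNA-seq was made from whole brain homogenate. The brains were those of WT C57BL/6 mice or of mice lacking Fmr1 (FMR1 KO), at postnatal day 5, with 10 brains pooled in a preparation. The preparations differed in more than magnesium. Standard samples (10 mM MgCl2) were digested at room temperature with an amount of RNase I set by the sample's RNA reading, and low nuclease samples (2.5 mM MgCl2) in the cold with a fixed amount, and their monosomes were then collected in different ways. The effects of magnesium, digestion and collection cannot be told apart. This gave 12 groups of 3 libraries and 36 libraries in all, 24 of them from footprints. A p-value here measures the spread between such pools. In RNA from a whole organ, fewer cells of a type and less RNA per cell cannot be told apart.

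Without reads of Cdk8, which took 36.7 to 63.4% of the counts of the standard footprint libraries, the libraries held 4284209 to 21274803 counts (standard footprints), 22378936 to 60377525 counts (low nuclease footprints) and 112240104 to 147207607 counts (standard RNA-seq). All 5 neuronal markers were present, with a summed level of 5253 to 11210 CPM (a gene's counts scaled to a common library total) in standard footprints, against 2.16 to 9.80 CPM for haemoglobin genes and at most 0.303 CPM for the liver gene Apoa1. The targeted gene, Fmr1, was at 64.6 to 67.8 CPM in the WT pellet and 4.79 to 4.93 CPM in the FMR1 KO pellet under standard digestion. In fraction 5/6 it was at 5.98 to 10.7 CPM in FMR1 KO and at 100, 68.6 and 3.17 CPM in WT. The library labelled WT fraction 5/6 replicate 3 thus had Fmr1 at the FMR1 KO level, and over 12982 genes its root mean square log2 difference was 0.681 to 0.758 to the WT pellets, 0.622 to 1.03 to the FMR1 KO pellets, 0.850 to 0.980 to FMR1 KO fraction 5/6 and 0.988 and 1.11 to the other WT fraction 5/6 libraries. The tests that use it are given with and without it. In low nuclease RNA-seq, WT replicate 2 and FMR1 KO replicates 2 and 3 had 81.5 to 85.0% of their counts in 10 genes, and these RNA libraries were not tested.

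Footprint peaks gave the sequences at which ribosomes accumulated on these mRNAs. Peaks of 12 standard libraries were matched between libraries where the midpoints of neighbouring peaks lay within 6 nt. The 6 sites below are shown as examples with a peak in more than 1 pellet library, on Nbea, Vps13d, Vps13b and Wdfy3. They were chosen after their values were seen, and further such sites on each of these genes are not shown. Each is a 30 nt window of the mRNA, written 5′ to 3′, in a single coding exon of GRCm38, and capitals mark the bases that every peak at the site covered.
Nbea, exon 39, codon 2064, chr3:55819352-55819381, minus strand: attactggGAGGATGATCTTCGtcgaagga
Nbea, exon 28, codon 1528, chr3:55988001-55988030, minus strand: cccgatagGCTTCTTCAGGATGTtgatatc
Vps13d, exon 10, codon 324, chr4:145170363-145170392, minus strand: gtggtattTTGCCCTGAACgctaacttgta
Vps13d, exon 5, codon 130, chr4:145178059-145178088, minus strand: ggCGGCAGCAGAAGGGAGAACCATAttggt
Vps13b, exon 51, codon 3078, chr15:35882930-35882959, plus strand: acaAGTCATTCAGATTGAAGATAAGACtac
Wdfy3, exon 33, codon 1960, chr5:101894991-101895020, minus strand: ATCACCCAGCTAAGAAGTTCGTCTTTGact

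The Nbea site at codon 2064 was the most widely shared, with a peak in 9 of 12 libraries. Peak height there was 115, 64 and 73 in the WT pellet libraries, 109 and 50 in FMR1 KO pellet replicates 1 and 2, 8 in WT fraction 5/6 replicate 2, 69 in the library labelled WT fraction 5/6 replicate 3, and 18 and 20 in FMR1 KO fraction 5/6 replicates 1 and 2. Height is the value listed with each peak and was not scaled to depth. Some listed peaks have a height of 0, so what height measures is not established here. The libraries held 5846 to 16795 Nbea counts in the pellets, 9260 in the library labelled WT fraction 5/6 replicate 3 and 1110 to 2538 in the rest of fraction 5/6, so the heights do not compare the fractions. The other Nbea site, at codon 1528, was joined by its fraction 5/6 peaks, since the midpoints of its pellet peaks lay more than 6 nt apart, and it had heights of 112 and 39 in FMR1 KO pellet replicates 1 and 2, and of 16 and 8 in WT and FMR1 KO fraction 5/6 replicate 1. The Vps13d site at codon 324 was found in pellets alone, in replicates 1 and 3 of WT (heights 17 and 9) and of FMR1 KO (22 and 9). At codon 130 of Vps13d, peaks of height 15 and 5 stood in FMR1 KO pellet replicates 1 and 3, and 1 of height 10 in the library labelled WT fraction 5/6 replicate 3. The Vps13b and Wdfy3 sites were each shared by the first WT and the first FMR1 KO pellet, with heights of at most 12 and 13.

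Peaks were spread unevenly over the genes. The pellets held 41 peaks on Wdfy3, 39 on Vps13b, 27 on Nbea, 21 on Vps13d, 10 on Vps13c and 2 on Lyst, while no peak was listed on Vps13a, Lrba, Nbeal1 or Nbeal2. In fraction 5/6, 98 of the peaks were on Nbea, and the only others (1 on Vps13b, 2 on Vps13d and 1 on Wdfy3) came from the library labelled WT fraction 5/6 replicate 3. The number of peaks called differed greatly between libraries, from 7 to 56 on these genes in the pellets and from 5 to 35 in fraction 5/6, so these totals were not tested.

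Along Vps13d, 16 of 21 pellet peaks (76.2%) lay in the first 10% of the coding sequence, where 5.94% of all pellet peaks lay. On Vps13b the opposite held, with 1 of 39 pellet peaks (2.56%) in the first 1/3 of the coding sequence and a median position of 53.3%, against 26.6% of all pellet peaks in that stretch. Wdfy3 had 3 of 41 (7.32%) there and a median position of 60.4%. On Nbea, 9 of 27 pellet peaks (33.3%) and 66 of 97 fraction 5/6 coding peaks (68%) were in that stretch, beside 28.5% of all fraction 5/6 peaks, and median positions were 47.2% and 23.4%. The remaining 1 of the 98 lay before the coding sequence. FMR1 KO pellet replicate 2 alone held 19 of the 27, and without it 2 of 8 (25%) were in that stretch, with a median of 61.1%. Heights on Nbea were 31 to 115 in the pellet and 0 to 69 in fraction 5/6. With the doubted library left out, the fraction 5/6 heights ended at 28, again not scaled to depth, and 65 of 95 coding peaks (68.4%) lay in the stretch, with a median of 17.2%. Without WT pellet replicate 1, which held 21 of the Wdfy3 and 19 of the Vps13b peaks, 0 of 20 and 1 of 20 (5%) were there, and with any 1 pellet left out the share of Vps13d peaks in the first 10% was 71.4 to 83.3%. The 21 Vps13d pellet peaks had heights of 0 to 22, and replicate 1 of WT and of FMR1 KO held 9 and 7 of them. Peaks of 1 gene share its mRNA and its libraries, and these positions are given as a description.

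**Figure D1:**
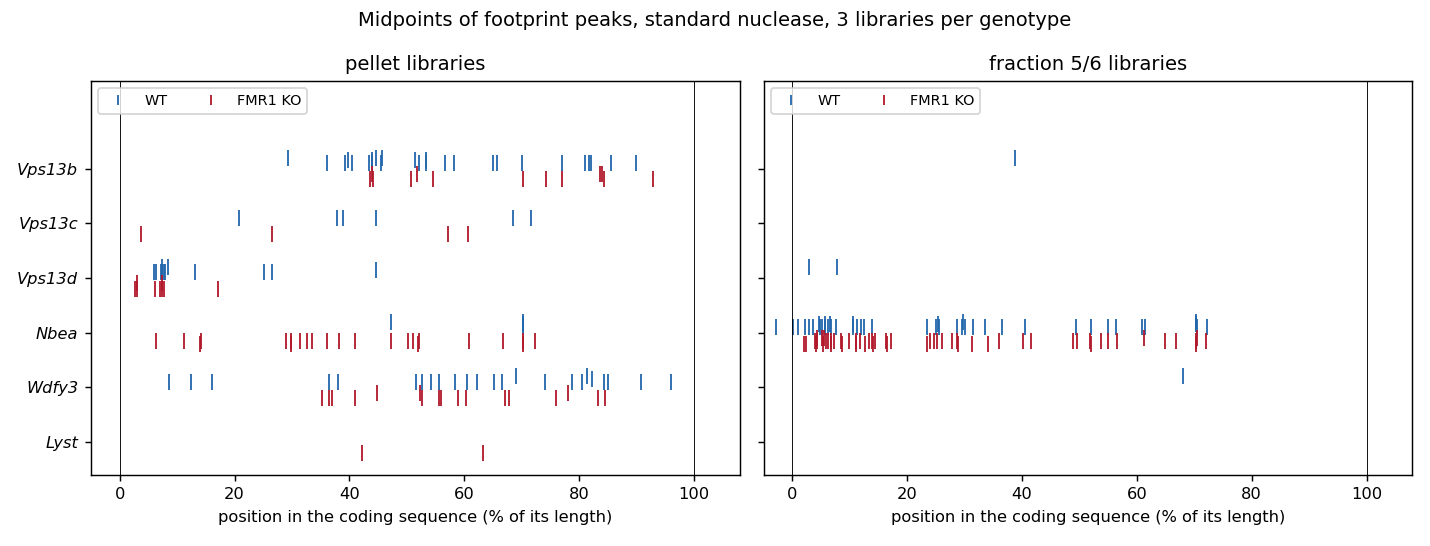
Midpoints of footprint peaks on the 6 genes that had any, as a percentage of the coding sequence (x axis), for standard pellet (left) and fraction 5/6 (right) libraries of WT (blue) and FMR1 KO (red), with 1 tick per peak. Vps13d pellet ticks crowd at the 5′ end (16 of 21 in the first 10%), Vps13b ticks lie almost entirely beyond the first 33%, and fraction 5/6 ticks are nearly all on Nbea.

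Of 124 pellet sites on these genes, 11 (8.87%) were found in 2 or more of the 6 pellet libraries, where 29.8% of 105574 sites on all transcripts were. Of the 11, 7 were in both genotypes, 2 in 3 or more libraries and none in all 6 (0.819% of all sites). Those found in 3 or more were the Nbea site at codon 2064, in 5 pellets, and the Vps13d site at codon 324, in 4. When midpoints had to coincide exactly, 1 of 139 sites (0.719%) was shared, beside 2.67% over all transcripts, and at 12 nt 16 of 117 (13.7%) were, beside 42.1%.

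The genes differed widely in abundance, and the order was led by the neuronal member. Per kilobase of coding sequence, the RPF level (RPKM, mean ± SD, n = 3) in the WT standard pellet was 92.7 ± 6.52 for Nbea, 22.6 ± 2.08 for Wdfy3 and 12.8 ± 0.357 for Vps13d. These 3 did not overlap each other or any lower gene. Lrba (8.18 ± 1.59) and Vps13b (8.17 ± 0.534) overlapped, and so did Vps13c (6.27 ± 0.865), Vps13a (6.06 ± 1.16) and Lyst (4.76 ± 0.800) in a second group below Vps13b. Nbeal1 (2.69 ± 0.0891) and Nbeal2 (0.485 ± 0.111) closed the order without overlap, and Nbeal2 rested on 106, 44 and 39 counts in these libraries.

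In WT RNA-seq, scaled to transcript length, the first 4 genes came in the same order: Nbea 46.7 ± 4.89 RPKM, Wdfy3 30.1 ± 2.48, Vps13d 9.37 ± 0.354 and Lrba 7.07 ± 1.24, none overlapping the next. Vps13b (5.37 ± 0.197) and Vps13c (4.77 ± 0.391) overlapped. Vps13a, level with Vps13c in the pellet, stood below Lyst in RNA (2.78 ± 0.452 against 3.79 ± 0.393, no overlap). Nbeal1 (2.19 ± 0.214), which overlapped Vps13a, and Nbeal2 (1.24 ± 0.205) were again the lowest.

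These genes are long and most are poor in G and C. Coding lengths ran from 8064 nt (Nbeal1) to 13170 nt (Vps13d), which placed them at ranks 188 to 50 of 16371 genes, whose median is 1383 nt. Coding GC content was 39.6% in Vps13a and 40.5% in Nbeal1, among the lowest of all genes (percentiles 1.50 and 2.17), and lay between 45.6 and 49.8% in Lyst, Vps13b, Vps13c, Nbea, Lrba and Vps13d. Wdfy3 (53.7%) and Nbeal2 (59.5%) were above the median of 53.2%. By location, Vps13a lies at chr19:16615366-16780933 (72 exons), Vps13b at chr15:35371160-35931229 (62), Vps13c at chr9:67840396-67995638 (85) and Vps13d at chr4:144972622-145195005 (70). Lrba lies at chr3:86224680-86782692 (57 exons), Nbea at chr3:55625195-56183701 (58), Wdfy3 at chr5:101832956-102069921 (65), Lyst at chr13:13590397-13778803 (53), Nbeal1 at chr1:60180599-60338328 (55) and Nbeal2 at chr9:110624789-110654161 (53). Exons of 6 of them (Vps13a, Vps13b, Lrba, Nbea, Wdfy3 and Nbeal1) overlap a gene on the other strand. For 3 of these that gene has a row in the count table, with an overlap of 1035 bases of Mab21l2 for Lrba, 981 of Mab21l1 for Nbea and 250 of Cox6c for Vps13b, and whether counting used strand is not given in the sources used here.

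The main comparison asked how footprints on these genes divided between the pellet and fraction 5/6. Summed over the 10 genes, the level was 1544.7, 1508.3 and 1745.6 CPM in the WT standard pellets and 301.3, 277.6 and 1522.2 CPM in WT fraction 5/6. In FMR1 KO it was 1765.6, 943.2 and 1624.6 CPM in the pellets and 323.8, 377.2 and 794.1 CPM in fraction 5/6. Both low nuclease pellets were also above their fraction 5/6, at 1646.8, 1745.0 and 1690.3 against 390.1, 578.4 and 447.5 CPM in WT and at 1821.7, 1508.1 and 1509.6 against 504.3, 516.4 and 558.7 CPM in FMR1 KO. The pellet was therefore higher than every fraction 5/6 library of its group save for WT standard, where the library labelled replicate 3 lay above the lowest pellet.

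**Figure D2:**
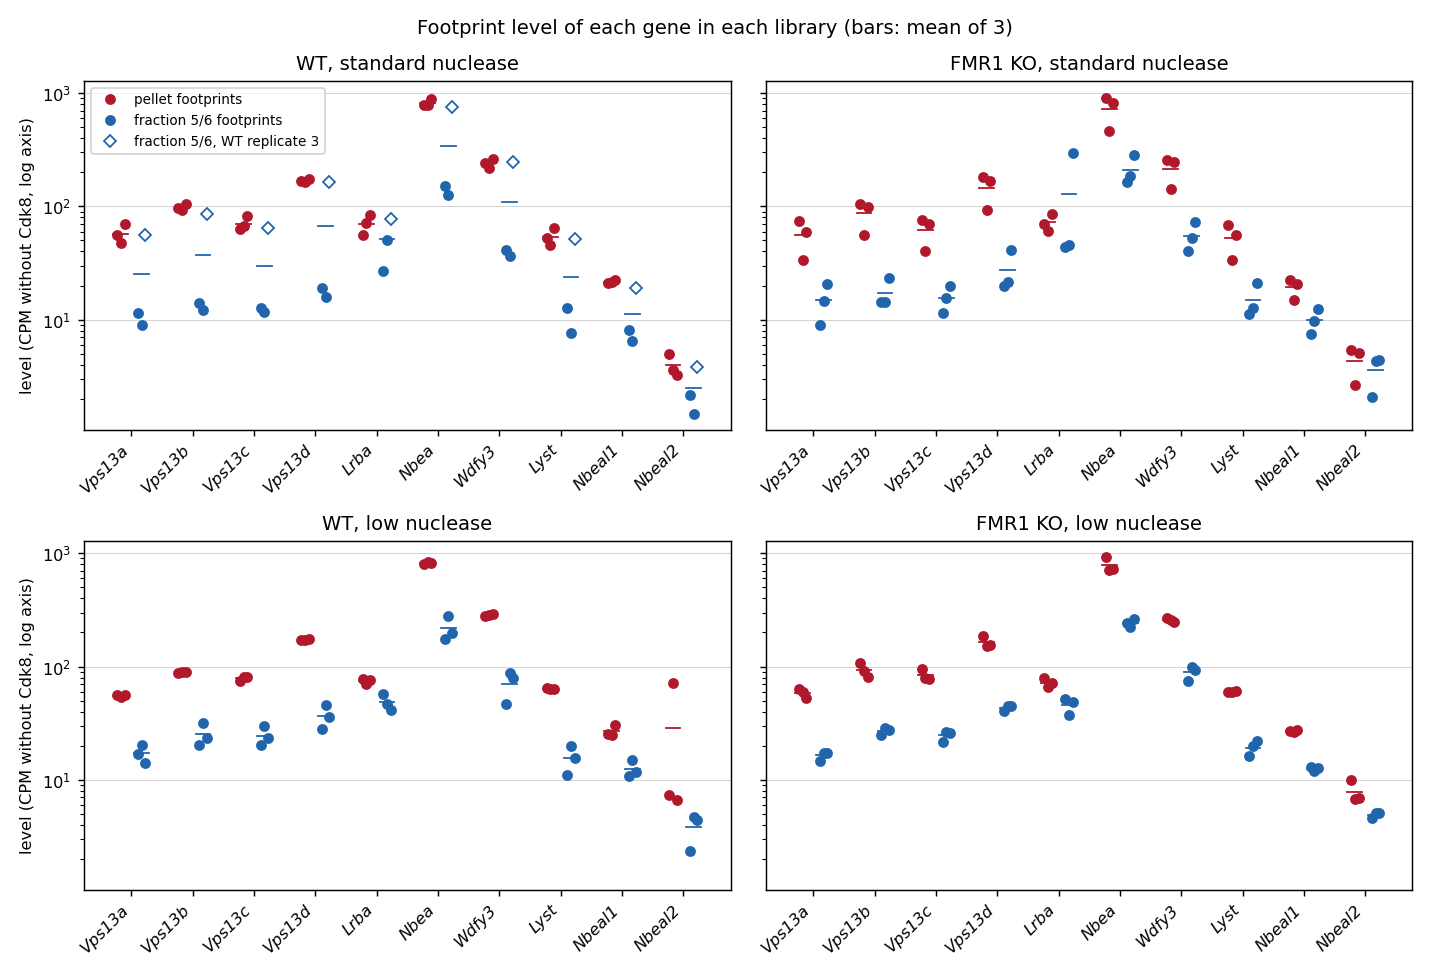
Footprint level of each gene (CPM without Cdk8, log axis) in every pellet (red) and fraction 5/6 (blue) library of WT and FMR1 KO mice under standard and low nuclease, with bars for the mean of 3. The open diamonds, the library labelled WT fraction 5/6 replicate 3, lie near the red pellet points, below all 3 of them for Vps13b, Vps13d, Nbea and Nbeal1, and Nbea lies highest in each panel.

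Vps13d, the longest of the genes, had the largest difference of the VPS13 family in 4 of 5 fits. Its level was 166.4, 164.8 and 173.6 CPM in the WT standard pellets against 19.0, 16.0 and 164.6 in fraction 5/6, and 180, 93.5 and 166 against 19.8, 21.3 and 40.8 in FMR1 KO. Under low nuclease it was 172, 173 and 173 against 28.3, 46.0 and 36.1 CPM in WT, and 185, 153 and 156 against 40.4, 44.8 and 44.5 CPM in FMR1 KO. Pellets and fraction 5/6 did not overlap in any setting, although the library labelled WT fraction 5/6 replicate 3 lay just under the lowest pellet. The log2 enrichment (pellet over fraction 5/6, edgeR, ± SE) was 2.76 ± 0.19 in FMR1 KO standard (adjusted p = 0.00127), 2.35 ± 0.18 in WT low (adjusted p = 0.00432) and 2.13 ± 0.15 in FMR1 KO low (adjusted p = 0.0068). In WT standard it was 1.42 ± 0.86 (adjusted p = 0.643), and without the doubted library 3.19 ± 0.19 (adjusted p = 0.00625).

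Vps13b followed closely, with 96.0, 92.7 and 105 CPM in WT standard pellets against 14.1, 12.1 and 85.6 in fraction 5/6. In FMR1 KO the pellets held 105, 56.4 and 98.8 CPM and fraction 5/6 14.2, 14.4 and 23.3 CPM. No fraction 5/6 library reached a pellet in either genotype, although WT replicate 3 came near. Its log2 enrichment was 2.63 ± 0.15 in FMR1 KO standard (adjusted p = 0.00127), 1.94 ± 0.18 in WT low and 1.98 ± 0.17 in FMR1 KO low. In WT standard it was 1.47 ± 0.72 with all libraries and 2.82 ± 0.21 without the doubted one (adjusted p = 0.643 and 0.00644).

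Vps13c and Vps13a were also higher in the pellet in each fit that called them. Vps13c was at 63.0, 66.9 and 81.4 CPM in WT standard pellets against 12.6, 11.8 and 64.0 in fraction 5/6, and at 76.5, 40.2 and 69.8 against 11.4, 15.6 and 19.8 CPM in FMR1 KO. Vps13a was at 55.6, 47.7 and 69.4 against 11.4, 8.97 and 55.6 CPM in WT, and at 73.7, 33.3 and 59.2 against 8.97, 14.6 and 20.8 CPM in FMR1 KO. For both, the WT groups overlapped through the library labelled fraction 5/6 replicate 3. FMR1 KO pellet replicate 2 was the lowest pellet for both, as for all of the VPS13 genes, and was still above each FMR1 KO fraction 5/6 library. Log2 enrichment in FMR1 KO standard was 2.28 ± 0.16 for Vps13c and 2.22 ± 0.23 for Vps13a (adjusted p = 0.00127 and 0.00326). Under low nuclease both were at 1.80 ± 0.16 in WT, and at 1.97 ± 0.17 and 2.03 ± 0.14 in FMR1 KO, all called. WT standard gave 1.32 ± 0.64 for Vps13c and 1.26 ± 0.67 for Vps13a, neither called, and without the doubted library 2.45 ± 0.26 and 2.44 ± 0.28 (adjusted p = 0.00997 and 0.0111).

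Among the BEACH genes, Nbea, Wdfy3 and Lyst behaved like the VPS13 genes. Nbea, by far the most abundant, was at 789, 778 and 883 CPM in WT standard pellets against 153, 126 and 753 in fraction 5/6, and at 905, 466 and 817 against 164, 186 and 283 CPM in FMR1 KO. Under low nuclease Nbea was at 799, 834 and 820 against 176, 277 and 198 CPM in WT and at 925, 711 and 729 against 242, 226 and 261 CPM in FMR1 KO. Pellet and fraction 5/6 did not overlap in any of the 4 settings. Log2 enrichment of Nbea was 2.09 ± 0.20 in FMR1 KO standard (adjusted p = 0.00282), 2.03 ± 0.22 in WT low and 1.90 ± 0.20 in FMR1 KO low (adjusted p = 0.0111). It was 1.32 ± 0.66 in WT standard and 2.48 ± 0.22 there without the doubted library (adjusted p = 0.00792).

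Wdfy3 was at 240, 217 and 260 CPM in WT standard pellets against 41.5, 36.6 and 248 in fraction 5/6, and at 258, 142 and 246 against 40.1, 52.9 and 72.1 CPM in FMR1 KO. Its log2 enrichment was 2.27 ± 0.16 in FMR1 KO standard (adjusted p = 0.00127), 2.14 ± 0.23 in WT low, 1.72 ± 0.14 in FMR1 KO low, and in WT standard 1.21 ± 0.72, or 2.53 ± 0.24 without the doubted library. Lyst was at 52.1, 46.0 and 63.9 CPM against 12.6, 7.61 and 51.7 in WT, and at 68.9, 33.7 and 55.8 against 11.2, 12.7 and 21.01 CPM in FMR1 KO. For both genes the WT groups overlapped through the library labelled replicate 3, and the FMR1 KO groups did not overlap. Lyst had a log2 enrichment of 2.13 ± 0.18 in FMR1 KO standard (adjusted p = 0.00191), 2.16 ± 0.20 in WT low and 1.83 ± 0.13 in FMR1 KO low. In WT standard Lyst gave 1.26 ± 0.64, and 2.39 ± 0.25 without the doubted library.

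Nbeal1 was enriched less. It stood at 21.1, 21.4 and 22.5 CPM in WT standard pellets against 8.18, 6.47 and 19.0 in fraction 5/6, and at 22.4, 14.9 and 20.7 against 7.53, 9.78 and 12.4 CPM in FMR1 KO. Neither genotype had an overlap. Log2 enrichment was 1.27 ± 0.13 in FMR1 KO standard (adjusted p = 0.00318), 1.22 ± 0.16 in WT low (adjusted p = 0.00922) and 1.29 ± 0.11 in FMR1 KO low. WT standard gave 0.98 ± 0.36 and, without the doubted library, 1.50 ± 0.17 (adjusted p = 0.0105).

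Lrba was the exception among the genes of moderate abundance. Its level was 56.1, 70.7 and 83.3 CPM in WT standard pellets against 26.9, 50.5 and 77.0 in fraction 5/6, and 70.2, 60.6 and 85.8 against 44.2, 45.7 and 297 CPM in FMR1 KO. The WT groups overlapped through the library labelled fraction 5/6 replicate 3 alone, and those of FMR1 KO through fraction 5/6 replicate 3 alone. FMR1 KO fraction 5/6 replicate 3, with 1271 counts, had the highest Lrba level of any library and was the smallest library of the standard footprints. Mab21l2, whose gene overlaps Lrba on the other strand, had 88 counts (20.5 CPM) there, within its range of 9.54 to 25.5 CPM in the other standard fraction 5/6 libraries. Its part in the result was not tested. Log2 enrichment of Lrba was −0.30 ± 0.57 in FMR1 KO standard (adjusted p = 0.754), and without that 1 library 0.81 ± 0.13 (adjusted p = 0.0314). Under low nuclease Lrba was at 77.1, 70.9 and 76.1 against 57.2, 46.6 and 41.3 CPM in WT (log2 enrichment 0.73 ± 0.17, adjusted p = 0.0293) and at 79.5, 66.0 and 71.2 against 52.1, 37.3 and 48.5 CPM in FMR1 KO (0.84 ± 0.19, adjusted p = 0.0318). In WT standard it was 0.40 ± 0.44 (adjusted p = 0.735), or 0.67 ± 0.49 (adjusted p = 0.425) without the doubted library, so that neither passed.

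Nbeal2 was near the limit of these libraries, with 4.98, 3.60 and 3.27 CPM in WT standard pellets against 2.17, 1.48 and 3.82 in fraction 5/6 and 5.38, 2.63 and 5.05 against 2.06, 4.32 and 4.43 CPM in FMR1 KO. It passed the test in FMR1 KO low alone (log2 enrichment 0.88 ± 0.23, adjusted p = 0.0443). In WT low the pellets were at 7.42, 71.6 and 6.58 CPM against 2.34, 4.68 and 4.46, which gave 3.08 ± 1.05 (adjusted p = 0.0783). The second of these pellets held 3050 counts of Nbeal2 and stood apart from all other libraries. With libraries left out, the WT low value ranged from 0.93 to 3.63. FMR1 KO standard gave 0.55 ± 0.29 (adjusted p = 0.247), WT standard 0.70 ± 0.34, and WT standard without the doubted library 1.08 ± 0.30 (adjusted p = 0.0953).

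**Figure D3:**
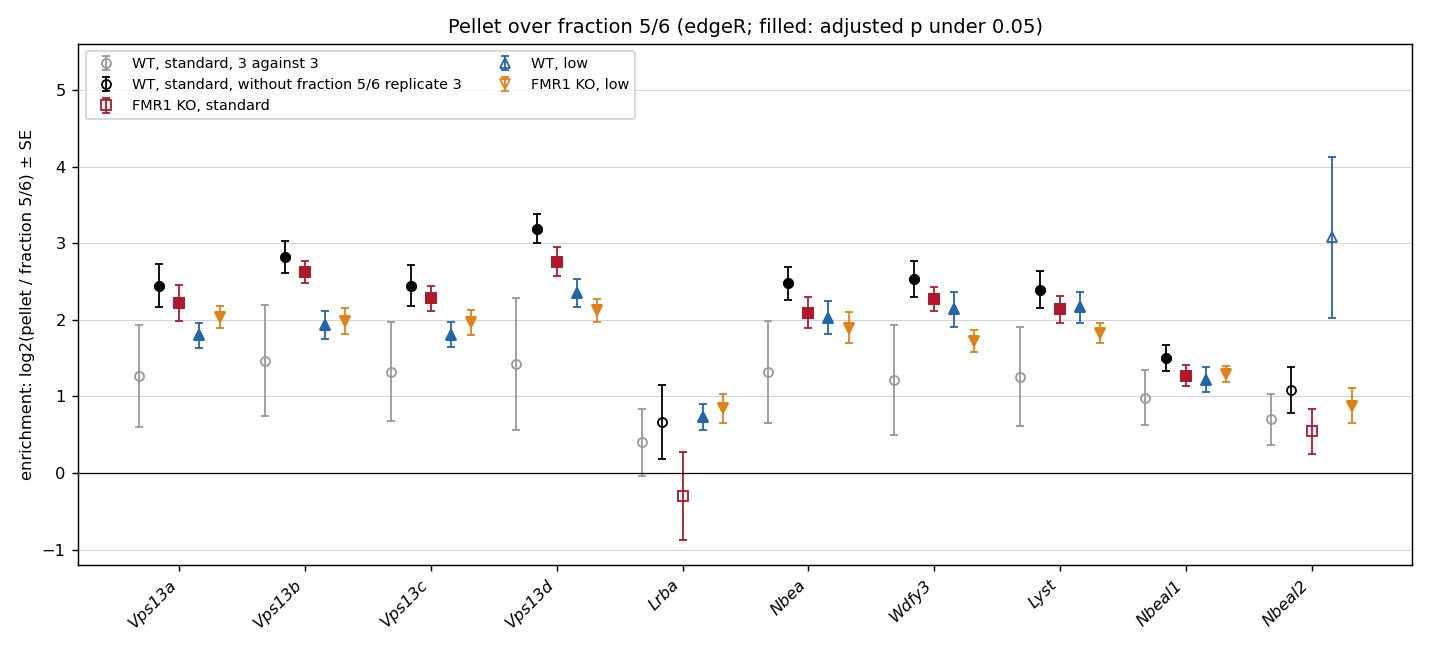
Log2 ratio of pellet over fraction 5/6 (± SE, edgeR) for each gene in WT and FMR1 KO under standard and low nuclease, and in WT standard without fraction 5/6 replicate 3, with filled symbols where the adjusted p was under 0.05. In all fits but WT standard with all 3 libraries, the filled symbols of Vps13a to Vps13d, Nbea, Wdfy3 and Lyst lie between 1.72 and 3.19, and Lrba and Nbeal2 lie lower, apart from Nbeal2 in WT low (3.08, not filled).

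Counted over the genes, 0 of 10 passed in WT standard by edgeR, where 0.023% of 13063 genes passed in either direction. All 10 had positive values (median 1.26, all genes −0.01), 1 was at an unadjusted p under 0.05, and DESeq2 likewise called 0, with 6 at an unadjusted p under 0.05 (8 by edgeR with a replicate block, which also called 0). Without the library labelled WT fraction 5/6 replicate 3, 8 of 10 passed, all higher in the pellet, against 7.78% of genes higher (median 2.44). In FMR1 KO standard 8 of 10 were higher against 9.11% of genes (median 2.18, all genes −0.04), and 9 without fraction 5/6 replicate 3. With library sizes less Cdk8 and no TMM factors (called without TMM below), 6 of 10 were higher there. The genes called higher then fell from 1206 to 148 of 13235. Under low nuclease 9 of 10 were higher in WT against 14.3% of genes, and 10 of 10 in FMR1 KO against 8.82%, with medians of 1.98 and 1.86 beside −0.02 and −0.04 over all genes. Pellet and fraction 5/6 libraries failed to overlap for 4 of 10 genes in WT standard (2.23% of all genes), 10 of 10 there without the doubted library (21.8%), 8 of 10 in FMR1 KO standard (5.24%), 10 of 10 in WT low (17.8%) and 10 of 10 in FMR1 KO low (11.4%). Leaving out replicate 3 of both fractions in FMR1 KO standard, or replicate 2 or 3 in FMR1 KO low, left 0 of the 10 called. Over all genes 7 of 13455, 9 of 15526 and 0 of 15513 were then called, and the medians of the 10 genes were 2.28, 1.92 and 1.98. In WT low the same left 4 (replicate 1) or 5 (replicate 3), beside 152 of 15697 and 300 of 15403 over all genes.

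Coding length and enrichment went together across all genes, and the values of these genes were therefore set beside others of like length. Spearman's rho between them across genes was 0.424 in WT standard (0.466 without the doubted library), 0.580 in FMR1 KO standard, 0.484 in WT low and 0.606 in FMR1 KO low. Genes are not independent replicates, and rho is given as a description. Other genes of at least 8000 nt had a median log2 enrichment of 0.73 in WT standard (172 genes; 1.26 for the 10 genes), 1.40 in FMR1 KO standard (173 genes), 1.07 in WT low (185) and 1.40 in WT standard without the doubted library (173), where the 10 genes had 2.18, 1.98 and 2.44. Of those long genes 63% were called higher in FMR1 KO standard, 66.5% in WT low and 48.6% in the reduced WT fit, and for genes under 1000 nt the medians were −0.33, −0.29 and −0.24. Vps13d was exceeded by 20 of the 173 long genes in FMR1 KO standard, 20 of the 185 in WT low and 16 of 186 in FMR1 KO low, whereas Lrba was exceeded by 166, 134 and 114.

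**Figure D4:**
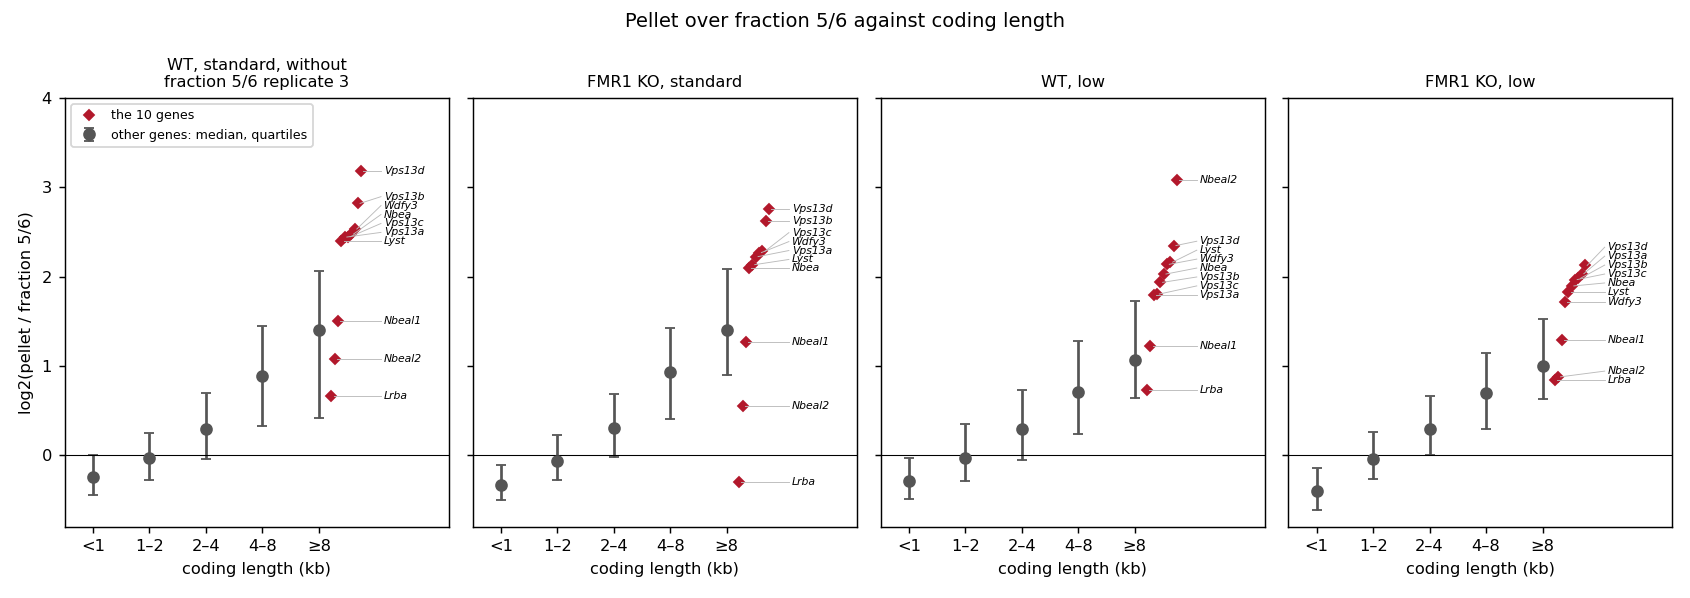
Log2 ratio of pellet over fraction 5/6 against coding length in 5 bins (kb), in 4 fits, with the median and quartiles of all other genes in grey and the 10 genes, named, as red diamonds beside the bin of at least 8 kb. The grey medians rise with length, 7 or 8 red diamonds in each panel lie above the upper quartile of the longest bin, and Lrba lies below its median in each panel.

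Footprint levels were next set against RNA. Pellet RPFs over RNA-seq, called occupancy here, asks whether a gene has more pellet footprints than its mRNA level relative to other genes. Its counts were not scaled to length, and listed 3′ untranslated regions ran from 3 nt (Wdfy3) to 7339 nt (Nbeal1). Per length, Nbeal1 was at 2.69 RPKM in the WT pellet and 2.19 in RNA, and Lrba at 8.18 and 7.07. The part of transcript length in the order below was not tested. Vps13a led with a log2 occupancy of 2.11 ± 0.22 in WT (adjusted p = 1.02e-04) and 1.88 ± 0.17 in FMR1 KO, from pellet levels of 47.7 to 69.4 CPM in WT and RNA of 25.1 to 34.9 CPM. Nbea was second with 1.84 ± 0.16 (adjusted p = 4.6e-05) and 1.45 ± 0.16. Vps13b (1.57 ± 0.13 and 1.34 ± 0.12), Vps13c (1.52 ± 0.16 and 1.37 ± 0.12), Vps13d (1.34 ± 0.12 and 1.22 ± 0.13), Lyst (1.29 ± 0.18 and 1.25 ± 0.15) and Lrba (1.17 ± 0.20 and 1.12 ± 0.10) followed. Wdfy3 had 0.75 ± 0.16 and 0.54 ± 0.14, and Nbeal1 0.50 ± 0.12 and 0.24 ± 0.09 (adjusted p = 0.00897 and 0.0499). Nbeal2 gave −0.26 ± 0.23 and −0.09 ± 0.20 (adjusted p = 0.349 and 0.71).

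By edgeR, 9 of 10 were higher in the pellet than in RNA in WT, against 31.2% of genes, and 9 of 10 in FMR1 KO, against 31.9%. Their medians were 1.31 and 1.23 beside −0.11 and −0.07 over all genes. The scale matters for this count. Without TMM factors, and with Cdk8 left out of the library size, 3 of 10 were higher and 3 lower in WT. In FMR1 KO 1 was higher and 2 lower. The median of all genes then moved by −1.15 in WT and −1.10 in FMR1 KO, Wdfy3 fell to −0.41 and −0.54 and Nbeal1 to −0.67 and −0.86, while the median of the 10 genes stayed above that of all genes by 1.41 and 1.33 (1.42 and 1.30 with TMM). Of all genes called, 47.6% were higher in each genotype with TMM, and 11.4 and 11.1% without it.

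Fraction 5/6 over RNA, again from counts not scaled to length, gave another order. In FMR1 KO, 7 of 10 were lower in fraction 5/6 than in RNA (33.1% of genes were) and 1 was higher (29.8% of genes were). The lowest were Wdfy3 (−1.62 ± 0.12) and Vps13d (−1.44 ± 0.12), then Vps13b (−1.18 ± 0.09), Nbeal1 (−0.93 ± 0.12), Vps13c (−0.80 ± 0.11), Lyst (−0.78 ± 0.10) and Nbea (−0.53 ± 0.12). Lrba was the higher one (1.50 ± 0.54, adjusted p = 0.042), which came to 0.43 without fraction 5/6 replicate 3 (adjusted p = 0.00885) and was not called by DESeq2 (adjusted p = 0.0541), while Vps13a had −0.23 and Nbeal2 −0.52, neither called. In WT with all libraries Nbeal2 alone was lower (−1.01 ± 0.30, adjusted p = 0.0248; 31.2% of genes were lower), and this call was lost when WT fraction 5/6 replicate 1 or 2 or RNA replicate 2 or 3 was left out. Without fraction 5/6 replicate 1, Lrba was instead called higher (1.10, adjusted p = 0.00317). With all libraries the highest value was 0.80 (Vps13a), and the median of the 10 genes was 0.01. Without the library labelled WT fraction 5/6 replicate 3, 8 of 10 were lower against 32.1% of genes, from −1.80 ± 0.14 in Vps13d and −1.74 ± 0.17 in Wdfy3 to −0.59 ± 0.17 in Nbea (adjusted p = 0.0257), with Nbeal2, Vps13b, Lyst, Nbeal1 and Vps13c at −1.29, −1.21, −1.05, −0.96 and −0.88. Vps13a (−0.29) and Lrba (0.53) did not pass. The pellet and fraction 5/6 comparisons share their RNA libraries. Without TMM the median of all genes moved by −1.09 in WT and −0.92 in FMR1 KO, and 0 of 10 were higher in either genotype, with 2 lower in WT and 9 lower in FMR1 KO. Over all genes 909 were higher and 9623 lower of 16145 in WT, and 1305 and 9036 of 16120 in FMR1 KO. In the enrichments it moved by at most −0.30 (FMR1 KO standard).

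**Figure D5:**
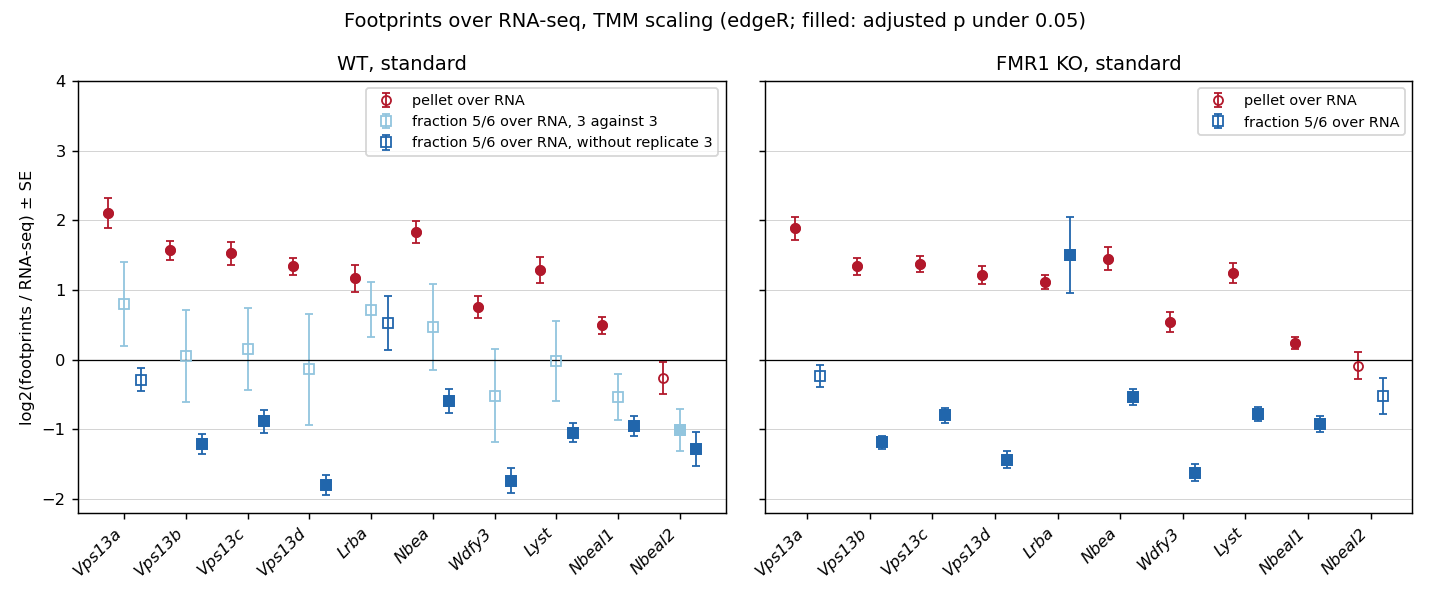
Log2 ratio of pellet RPFs (circles) and fraction 5/6 RPFs (squares) over RNA-seq for each gene (± SE, edgeR with TMM), in WT (left) and FMR1 KO (right), with filled symbols where the adjusted p was under 0.05. Pellet circles lie above 0 for 9 genes in each genotype, and the squares of Vps13d and Wdfy3 lie lowest in FMR1 KO and, without fraction 5/6 replicate 3, in WT.

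The loss of FMRP was not accompanied by a called difference in any of these genes in standard footprints, standard RNA-seq or low nuclease footprints. In the standard pellet, FMR1 KO over WT ranged from −0.20 ± 0.15 (Vps13d) to 0.13 ± 0.25 (Nbeal2). By edgeR 0 of 10 passed, 0 were at an unadjusted p under 0.05, DESeq2 called 0, and 0.015% of 13356 genes passed. In standard RNA-seq, values ran from −0.13 ± 0.09 (Vps13d) to 0.17 ± 0.11 (Nbea), and edgeR again called 0, with 0 at an unadjusted p under 0.05, 0 by DESeq2 and 0.0736% of genes. Vps13d RNA was at 142, 152 and 151 CPM in WT and 136, 125 and 138 CPM in FMR1 KO, and Nbea RNA at 477, 487 and 574 against 573, 532 and 586 CPM. The Vps13d groups did not overlap and the Nbea groups did, and neither difference passed. The share of all genes without overlap was not counted for RNA.

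In standard fraction 5/6, FMR1 KO over WT ran from −1.56 ± 0.85 (Vps13d) to 0.73 ± 0.70 (Lrba). edgeR called 0 of 10, 0 were at an unadjusted p under 0.05, DESeq2 called 0 with 2 at an unadjusted p under 0.05, and 0% of 13062 genes passed. Without the library labelled WT fraction 5/6 replicate 3, Vps13d was at 0.18 and the median of the 10 at 0.13, with 0.0301% of genes called and again 0 of 10.

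Under low nuclease, FMR1 KO over WT in the pellet ran from −1.81 ± 1.01 (Nbeal2) to 0.19 ± 0.11 (Vps13a), and in fraction 5/6 from −0.09 ± 0.22 (Lrba) to 0.36 ± 0.25 (Nbeal2). edgeR and DESeq2 called 0 of 10 in each, with 0 at an unadjusted p under 0.05 by either. DESeq2 gave no p for Nbeal2 in the pellet, where its value was −1.79. Over all genes, edgeR called 0.0197% in the pellet and 0.0445% in fraction 5/6. Nor was any called with 1 library left out in turn, and without the WT low pellet that stood apart Nbeal2 was at 0.31 ± 0.25. Without WT fraction 5/6 replicate 2, however, 4 of 10 were at an unadjusted p under 0.05 by edgeR in fraction 5/6. The median of the 10 was then 0.32, beside 0.12 with all libraries, and that of all genes was −0.003. The pellet levels of 2 of 10 genes were lower in FMR1 KO without overlap, where 8.8% of all genes were. Lyst was at 65.0, 63.5 and 63.3 CPM in WT against 59.6, 59.7 and 60.3 in FMR1 KO, and Wdfy3 at 282, 283 and 293 against 269, 256 and 248 CPM. With TMM their log2 differences were 0.01 ± 0.08 and −0.05 ± 0.11, so the order seen in CPM did not carry over to the fit for Lyst, and neither passed.

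Whether enrichment itself differed by genotype was tested with an interaction term. edgeR and DESeq2 called 0 of 10 (0% of 13664 genes by edgeR), with 0 at an unadjusted p under 0.05, and without the doubted library edgeR also called 0 (0% of 13950 genes). The median interaction was 0.95 with all libraries and −0.24 without that one, so the sign of the median turned on 1 library. Between standard and low nuclease, edgeR and DESeq2 called 0 of 10 in either genotype (0.0655% of genes in WT, 0.274% in WT without the doubted library, 0.00648% in FMR1 KO). In WT 0 were at an unadjusted p under 0.05, or 2 without the doubted library, and the median went from −0.71 to 0.44. In FMR1 KO the interaction (standard less low) ran from −1.09 (Lrba) to 0.68 ± 0.22 (Vps13b), and Vps13b, Vps13d and Wdfy3 were at an unadjusted p under 0.05.

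The other known bridge-like lipid transfer proteins gave a mixed picture. In FMR1 KO standard, 4932438A13Rik (BLTP1) had a log2 enrichment of 2.54, and the autophagy proteins Atg2b and Atg2a, which bring lipid to the growing autophagosome, 1.54 and 1.34. Uhrf1bp1 (BLTP3A) followed with 1.02, and these 4 of 6 passed, against 9.11% of all genes called higher. Uhrf1bp1l (BLTP3B, 0.36) and 2610507B11Rik (BLTP2, 0.04) did not. The same 4 passed in WT low (1.89, 1.46, 1.42 and 0.82 in that order; 14.3% of genes), in WT standard without the doubted library (2.54, 1.82, 1.45 and 1.12; 7.78%) and, with Uhrf1bp1l as the fifth (0.43), in FMR1 KO low (1.57, 1.32, 1.09 and 0.55; 8.82%), and none passed in WT standard with all libraries. 2610507B11Rik also had the lowest log2 occupancy of the class, at −2.35 in WT and −2.38 in FMR1 KO.

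Of 3 other BEACH genes, Wdr81, which acts on endosomes, passed in FMR1 KO standard (2.03), WT low (1.84), FMR1 KO low (1.49) and WT standard without the doubted library (2.25). Wdfy4, a gene of dendritic cells, passed under low nuclease (0.86 in WT and 0.72 in FMR1 KO), and Nsmaf in no fit (0.19 to 0.37). These 3 genes were not set beside genes of like coding length either.

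Those partners of these proteins that passed were lower in the pellet. Of 9 genes whose products bind VPS13 proteins at membranes and 8 that act with WDFY3 in autophagy, 1 passed in FMR1 KO standard, where 2.41% of genes were lower: Gabarap, an ATG8 protein of the autophagosome (−0.65). In WT low, where 8.6% of genes were lower, 3 passed: Rab7, the late endosomal GTPase (−1.37), Vapa, an endoplasmic reticulum anchor (−0.57), and Gabarapl1 (−0.45). In FMR1 KO low, where 11.8% were lower, 7 passed: Gabarap (−0.78), Map1lc3b (−0.71), Gabarapl1 (−0.64), Stx6 (−0.49), Atg12 (−0.46), Vapb (−0.42) and Rhot2 (−0.32). None of the 17 passed in WT standard, with or without the doubted library, and none was higher in the pellet in any of these fits. Sqstm1, the autophagy receptor bound by WDFY3, had the highest pellet level of these partners in WT standard, at 394 CPM, and did not pass. The partners were not set beside genes of like coding length. Over all genes under 1000 nt, the median log2 enrichment was −0.33 in FMR1 KO standard, −0.29 in WT low and −0.40 in FMR1 KO low.

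Across the 24 footprint libraries, 8 of the genes varied together and 2 did not. Pearson's r of log2 level with the mean of the other 9 was 0.972 to 0.986 for Vps13a, Vps13b, Vps13c, Vps13d, Nbea, Wdfy3, Lyst and Nbeal1, 0.562 for Nbeal2 and 0.433 for Lrba (0.582 and 0.425 without the doubted library, and 0.975 to 0.987 for the other 8), with the highest pair Vps13b and Vps13d (0.997). Among 12869 other genes, those most like the mean of the 10 included Huwe1 (0.994), Usp24, Dmxl2 and Anapc1 (0.989 to 0.990), with coding lengths of 5832 to 13134 nt. Lrba stood apart in FMR1 KO standard fraction 5/6 replicate 3 (297 CPM) and Nbeal2 in WT low pellet replicate 2 (71.6 CPM). For these genes r was not computed without those libraries. The points share the split between pellet and fraction 5/6 and the depth of each library, and r is given as a description.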

How the data were processed

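The authors trimmed reads with Cutadapt 2.10, removed ribosomal reads with Bowtie2 2.3.5, aligned with STAR 2.7.8a to GRCm38, used Picard and SAMtools 1.19.2, and counted with featureCounts 2.2.0. The deposited table held raw counts per gene for 36 libraries, of which 92 of 16614 rows lacked a symbol. The deposited peak lists held each peak's interval and height (a signal, at 0 for some peaks) for 12 standard libraries. The genes and lists were chosen with earlier results of these data known. Named are each of the 10 genes in all enrichment, occupancy and fraction 5/6 over RNA comparisons, and in genotype and interaction comparisons those past the threshold and the lowest and highest. Listed partners are named where they passed an enrichment test, with the most abundant.

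Counts of protein-coding genes passing filterByExpr were tested with edgeR 4.0.16 (TMM, quasi-likelihood F test, limma 3.58.1, R 4.3.3), with Benjamini-Hochberg adjustment over all genes at 0.05, using only the groups compared, and with DESeq2 1.42.0 as an alternative. SE was |log2 fold change| divided by the square root of F. CPM used the total less Cdk8. RPKM used coding length for footprints and transcript length for RNA. Low counts (such as 13 for Nbeal2) carry the larger counting error. Peak summits were not in the lists, so interval midpoints were used, and 895 of 900 listed peak sequences compared matched the transcript at the listed position. Replicate numbers paired WT low (correlations of deviations 0.188, 0.119 and 0.210 between pellet and fraction 5/6, from the data, since the labels give a number only), and the block kept 9 genes called. On simulated counts, edgeR recovered 65, 74, 82 and 75% of genes changed by 2 on the log2 scale in WT standard, FMR1 KO standard, WT low and FMR1 KO low, and 5, 12, 9 and 5% of those changed by 1. Alternatives were normalization (library size less Cdk8 and no TMM), filter, biotype, tool, replicate block, 12 groups in a model and leaving out libraries. The relation to coding length without WT fraction 5/6 replicate 3, the peak positions with a library left out and the genotype comparisons under low nuclease were added after seeing the data. Python 3.11.15, pandas 2.3.3, numpy 2.4.6 and matplotlib 3.10.9 were used.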

Additional observations from a re-analysis of the deposited data

How the results depend on the processing

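The doubted WT fraction 5/6 library moved the WT standard calls most. Each group held 3 libraries, and Cdk8 took up to 63.4% of standard footprint counts. Over the comparisons, 502 values kept direction and side of the threshold under another setting, 14 reversed, 10 came to pass and 26 ceased to, and with other libraries left out 716 kept both, 23 reversed, 16 came to pass and 83 ceased to. Leaving out the doubted library kept 7 values, reversed 7 and let 12 pass. The cause was not tested unless fewer libraries were fitted.

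With all 12 groups in a model, 3 of 10 genes passed in WT enrichment, standard. Without TMM, 3 passed in FMR1 KO occupancy (1 higher, 2 lower) and 2 in WT fraction 5/6 over RNA (both lower), with 3 higher and 3 lower in WT occupancy and 9 lower in FMR1 KO fraction 5/6 over RNA. With TMM over 36 libraries the summed level was 574.1 CPM in WT RNA and 606.6 in FMR1 KO RNA, and under low nuclease 1133 and 1144 in the pellets and 269.7 and 305.9 in fraction 5/6 (WT and FMR1 KO). With exact matching 1 peak site was shared. Called genes ranged with libraries left out over 0 to 8 (WT enrichment, standard), 0 to 9 (FMR1 KO), 4 to 9 (WT low), 0 to 9 (FMR1 KO low) and 0 to 8 (WT fraction 5/6 over RNA). The share of all called genes that were higher moved without TMM from 66.7 to 37.5% (WT enrichment, standard), 62.4 to 45.1% (WT low), 42.8 to 21.3% (FMR1 KO low), 47.6 to 11.4% and 47.6 to 11.1% (occupancy), 44.1 to 8.63% and 47.4 to 12.6% (fraction 5/6 over RNA) and 0 to 50% (FMR1 KO over WT, pellet). The first rested on 2 genes higher and 1 lower with TMM, and 3 and 5 without it. The last rested on 0 and 2 with TMM, and 8 and 8 without it.

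The replicate block turned Lrba in FMR1 KO enrichment to 0.0848, and in WT fraction 5/6 over RNA Vps13b to −0.49 and Vps13c to −0.25. It called 0, 8, 9 and 10 genes in the 4 enrichments (WT and FMR1 KO standard, then low), 9 and 8 in occupancy and 1 and 7 in fraction 5/6 over RNA. Outside WT low the numbers were not taken to pair samples. Without TMM, occupancy of Wdfy3 was −0.4147 in WT and −0.5433 in FMR1 KO, and of Nbeal1 −0.6665 and −0.8633. WT fraction 5/6 over RNA was then −0.2455 for Vps13a, −0.9868 for Vps13b, −0.8991 for Vps13c, −0.4419 for Lrba and −0.5755 for Nbea, and Lyst was 0.0816 by DESeq2 and 0.0485 with 12 groups. With libraries left out, reversing values ranged for Lrba over −0.6733 to 0.8136 (FMR1 KO enrichment), −0.3149 to 1.282 (FMR1 KO over WT, fraction 5/6) and −1.336 to 0.3753 (enrichment by genotype). For Vps13d they were −1.998 to 0.1803 and −0.4115 to 1.819 in the latter comparisons. In WT fraction 5/6 over RNA they were −0.285 to 1.192 (Vps13a), −1.21 to 0.4794 (Vps13b), −0.8845 to 0.5554 (Vps13c), −1.802 to 0.3198 (Vps13d), −0.5906 to 0.8483 (Nbea) and −1.046 to 0.3407 (Lyst). Nbeal2 ranged over −0.2788 to 0.0207 (FMR1 KO occupancy) and Nbeal1 over −0.5799 to 0.3049 (WT by preparation).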
